A study of Mus musculus with 11 samples.

Results

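The 10 genes described here encode receptors, 1 bridging ligand and 1 lysosomal glycoprotein with which phagocytes bind, take up and break down dying cells, modified lipoproteins and other particles. They were chosen by name from the 32,285 genes of the count matrices: *Mertk*, *Axl* and their ligand *Gas6*; *Timd4*; *Cd36*, *Msr1* and *Marco*; *Mrc1* and *Stab1*; and *Cd68*. Their transcripts were read in single-cell RNA sequencing libraries from mouse brain, after sham surgery or after middle cerebral artery occlusion/reperfusion (MCAO/R, a model of ischaemic stroke in which a brain artery is blocked and then reopened), in wild-type (WT) mice and in mice without *Lrg1* (Lrg1-/-), a gene for a secreted leucine-rich glycoprotein. The comparisons ask how these genes differed between sham surgery and MCAO/R in each genotype, and between the genotypes after each surgery, first in microglia and macrophages and then in the other cells of the brain.

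Efferocytosis, the uptake of dying cells, begins when phosphatidylserine appears on the outer face of a dying cell. Mertk and Axl are receptor tyrosine kinases of the TAM family that see phosphatidylserine through the bridging protein Gas6, whereas Timd4 (TIM-4) and Stab1 (stabilin-1) bind it directly. Cd36, Msr1 (scavenger receptor A) and Marco are scavenger receptors for oxidised lipoproteins, microbial products and debris, Mrc1 (CD206) is a mannose receptor that takes up glycoproteins, and Cd68 is a heavily glycosylated protein of late endosomes and lysosomes that marks phagocytes. In the brain, microglia are the resident phagocytes of the tissue, border macrophages sit at vessels, meninges and choroid plexus, and monocytes enter from the blood after injury.

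The promoters of 9 of the 10 genes were found in the RefSeq promoter table (GRCm38.p6, 250 bases before to 50 bases after each start), and that of *Msr1* was not. The promoters of *Cd68*, *Stab1* and *Gas6* are shown because these genes changed after MCAO/R in microglia-like cells of both genotypes, *Cd68* and *Stab1* in the same direction and *Gas6* in opposite directions. Each is written 5′ to 3′ on the strand of the gene, and capitals mark 2 motifs searched on both strands: GAGGAA, or TTCCTC on the other strand, which is the purine-rich core read by ETS factors such as PU.1, and TGANTCA, read by AP-1. The motifs do not overlap each other in these windows. *Cd68* lies at chr11:69666121-69666420, *Stab1* at chr14:31168592-31168891 and *Gas6* at chr8:13494486-13494785, all on the minus strand.
Cd68: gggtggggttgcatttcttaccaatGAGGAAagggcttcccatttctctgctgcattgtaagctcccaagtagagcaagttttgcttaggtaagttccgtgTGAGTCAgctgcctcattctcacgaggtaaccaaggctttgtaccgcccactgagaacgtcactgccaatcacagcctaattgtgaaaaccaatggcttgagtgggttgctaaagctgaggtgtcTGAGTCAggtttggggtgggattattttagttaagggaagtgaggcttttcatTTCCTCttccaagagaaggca
Stab1: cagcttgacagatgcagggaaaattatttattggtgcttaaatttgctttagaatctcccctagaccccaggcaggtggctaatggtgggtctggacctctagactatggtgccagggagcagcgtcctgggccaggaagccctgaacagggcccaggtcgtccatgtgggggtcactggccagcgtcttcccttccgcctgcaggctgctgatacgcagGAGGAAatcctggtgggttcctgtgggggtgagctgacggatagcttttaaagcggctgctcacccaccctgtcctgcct
Gas6: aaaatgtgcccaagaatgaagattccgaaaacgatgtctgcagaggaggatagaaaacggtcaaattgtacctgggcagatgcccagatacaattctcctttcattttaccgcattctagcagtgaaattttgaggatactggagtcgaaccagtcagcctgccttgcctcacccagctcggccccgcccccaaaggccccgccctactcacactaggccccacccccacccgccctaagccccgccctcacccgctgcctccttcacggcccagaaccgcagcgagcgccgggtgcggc
The *Cd68* window held GAGGAA at -225 and, on the other strand, at +29 from the start, and TGANTCA at -149 and -24. The *Stab1* window held GAGGAA at -30. The *Gas6* window held neither motif. GAGGAA was present in 5 of the 9 promoters (*Axl*, *Cd68*, *Marco*, *Mrc1* and *Stab1*) and in 28.3% of all 32,851 promoters of the same length, and TGANTCA in 1 of 9 and in 7.81%. CACGTG, the E-box motif searched as a comparison, was in 0 of 9 and in 7.15%. A match describes these letters and is not a binding site.

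There were 11 libraries of 1 mouse each, made with the 10x Genomics 3′ kit from the right side of the brain. Of these, 3 were sham + WT (replicates 1, 2, 3), 3 were sham + Lrg1-/- (replicates 1, 2, 5), 2 were MCAO/R + WT (replicates 1, 2) and 3 were MCAO/R + Lrg1-/- (replicates 1, 2, 5). WT mice were male C57BL/6 animals, and Lrg1-/- mice carried a conventional deletion in every cell and came from a C57BL/6N line of another supplier. Their ages are described differently, in weeks for WT and in months for the knockout, so that genotype cannot be told apart from source and age. The reperfusion time of these libraries is not given in the labels.

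Total UMIs (unique molecular identifiers, each counting 1 captured transcript) per library ranged from 37,159,497 to 171,813,031, and 125,113 cells were kept. The cells captured differed with genotype. Choroid plexus epithelial-like cells made up 29.8% of sham + Lrg1-/- and 8.47% of MCAO/R + Lrg1-/- cells, against 1.71% and 0.631% in WT. Microglia-like cells made up 12.5% and 14.55%, against 39.3% and 39.4%. Median UMIs per cell were 3159–7634 in Lrg1-/- and 6327–11,220 in WT libraries. Genotype cannot be told apart from these differences either. The barcodes deposited for 4 Lrg1-/- libraries come to round numbers (15,500, 9000, 5650 and 8500), and whether they were limited to a set number is not given in the sources used here. Lrg1 itself had no UMI in microglia-like cells of any of the 6 Lrg1-/- libraries, against 22.7 and 31.3 CPM (a gene's UMIs scaled to the same total in every library) in the MCAO/R + WT libraries. Microglia-like cells of Lrg1-/- libraries held more RNA typical of red blood cells and choroid plexus, and whether it was free RNA was not tested. The 4 haemoglobin genes summed to 7872–18,790 CPM in sham + Lrg1-/- microglia-like cells and to 9322–17,480 CPM in MCAO/R + Lrg1-/- ones, against 15.1–20.8 CPM in WT. There 5 choroid plexus genes such as *Ttr* summed to 2648–7105 CPM against 117–538 CPM. The part of this RNA in each result was not tested. Where a carried level is given, it is set beside the measured level as a description. MCAO/R + Lrg1-/- replicate 5 stood apart, since 13,398 of its 32,130 cells lay in an unnamed, shallow cluster led by *Chil3* and *S100a9*. The cell barcodes that 2 libraries had in common made up 0.131–1.06% of the smaller library over 55 pairs.

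Cells were named from marker genes that did not include the 10 genes. The microglia-like class had 30,948 cells (282–4748 per library), and all 10 of its markers, *P2ry12* and *Tmem119* among them, were higher there than in the other 17 classes. A further 6041 shallow cells, for which the leading marker list was also that of microglia, scored too low to be named. MCAO/R + Lrg1-/- libraries had 2392, 991 and 749 of them, and the first of these, replicate 1, had 282 cells in the microglia-like class. Sham + Lrg1-/- libraries had 709, 605 and 202, sham + WT 37, 39 and 40, and MCAO/R + WT 244 and 33. Comparisons between genotypes in microglia-like cells therefore used unequal parts of the cells with microglia markers, and were repeated with this cluster added. The border macrophage-like class had 1035 cells, with all 7 of its markers (such as *Lyve1*, *Cd163* and *F13a1*) at their highest. Sham + Lrg1-/- replicate 5 (10 cells) and MCAO/R + Lrg1-/- replicate 1 (13 cells) were left out of its fit, which leaves 2 libraries in each group except sham + WT. A further 277 shallow cells with border macrophages as their leading marker list stayed unnamed, since they were split from a haemoglobin-led cluster. Sham + Lrg1-/- libraries had 60, 33 and 28 of them and MCAO/R + Lrg1-/- libraries 25, 19 and 28. Sham + WT libraries had 21, 28 and 22 and MCAO/R + WT libraries 10 and 3. No alternative added them, so comparisons between genotypes in border macrophage-like cells used unequal parts of the cells with these markers. The monocyte or monocyte-derived macrophage-like class (monocyte/macrophage-like below) had 1812 cells, and 4 of its 8 markers were highest there (not *Ly6c2*, *Chil3*, *Vcan* or *Fn1*, which ranked 2 or 3 of 18). In it the MCAO/R + WT group had 1 library with 20 cells or more (replicate 1, 38 cells), which is assumed to vary like the other groups. UMIs were summed per library and tested by edgeR's quasi-likelihood test. A gene was called at an adjusted p under 0.05, adjusted over every gene tested in that cell type, and a natural-log fold change over 0.25. Levels in these comparisons are CPM with TMM-adjusted library sizes, and fold changes are log2 values ± SE.

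In microglia-like cells of WT mice, 5 of the 9 genes tested passed after MCAO/R compared with sham surgery: *Msr1*, *Stab1*, *Cd68* and *Marco* rose and *Gas6* fell. *Marco* passed the filter on low counts only through MCAO/R libraries, and 1 library holds most of its UMIs. Apart from it 4 of 8 were called. Of all 18,433 genes tested in these cells, 22.1% were called in this comparison. In Lrg1-/- mice, 5 of 9 rose (*Msr1*, *Cd36*, *Cd68*, *Gas6* and *Stab1*) and none fell, where 36.1% of all genes were called. *Timd4*, with 12 UMIs in all microglia-like cells, did not pass the filter on low counts. Between the genotypes after MCAO/R, *Cd36* and *Gas6* were higher and *Stab1* and *Marco* lower in Lrg1-/- mice (4 of 9, or 3 of 8 apart from *Marco*, against 22.0% of all genes), and after sham surgery *Axl* and *Cd68* were lower (2 of 9, against 22.7%). The effect of MCAO/R differed between the genotypes for *Cd36*, *Gas6* and *Cd68* (3 of 9, against 8.54% of all genes for this interaction). The comparisons share libraries, so that their values stand side by side and do not support each other.

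**Figure D1:**
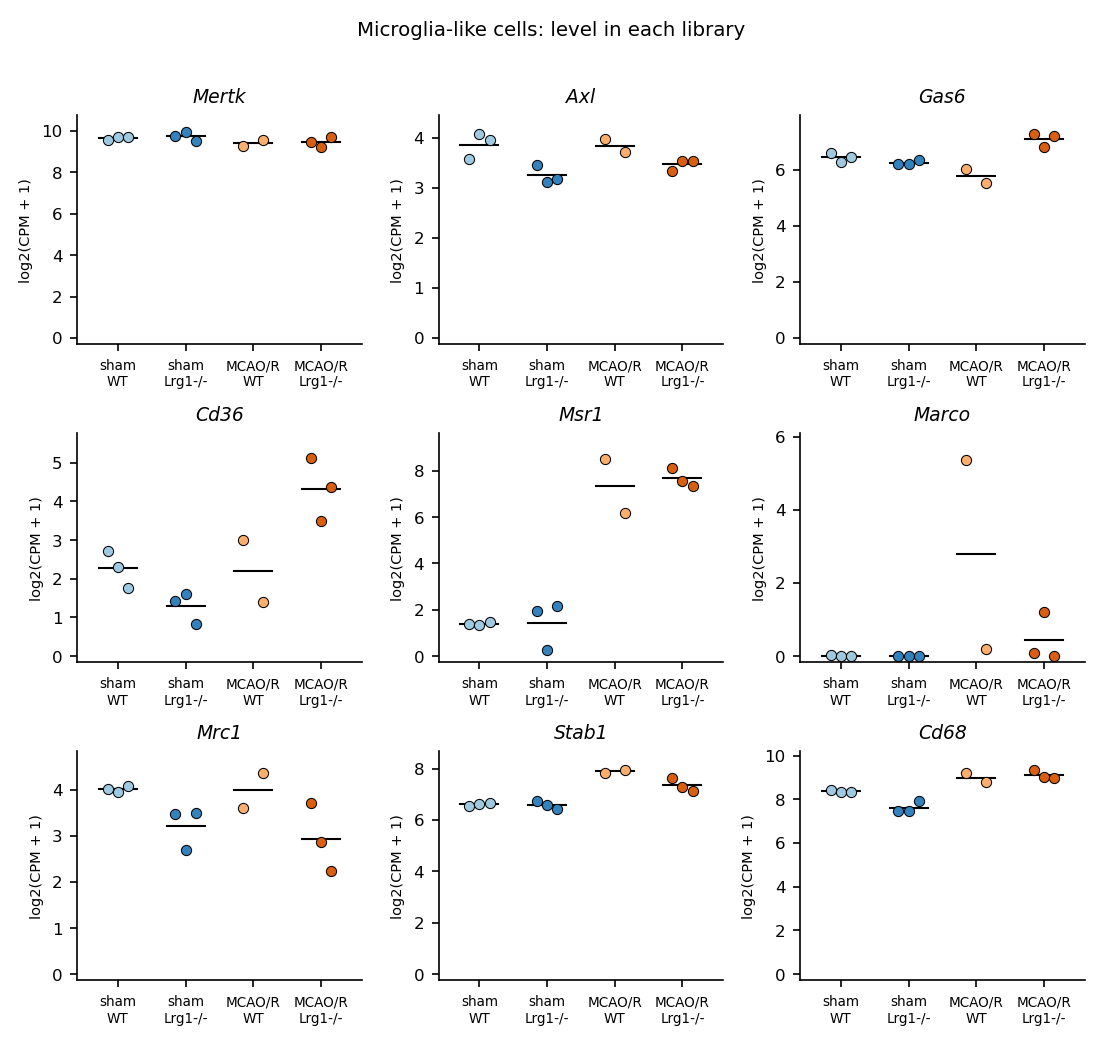
Level of 9 of the genes in microglia-like cells, 1 panel per gene, as log2(CPM + 1) on the vertical axis with a scale of its own per panel and the 4 groups along the horizontal axis; points are libraries and lines group means. All *Msr1* values after MCAO/R lie above all sham values, the highest sham value being 3.45 CPM and the lowest after MCAO/R 71.1 CPM, whereas *Mertk* lies between 606 and 973 CPM in every library.

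*Mertk*, the TAM kinase typical of microglia and tissue macrophages, was not called in any comparison of microglia-like cells. It measured 764, 826 and 849 CPM in the sham + WT libraries, 875, 973 and 733 CPM in the sham + Lrg1-/- libraries, 627 and 750 CPM in the MCAO/R + WT libraries and 825, 716 and 606 CPM in the MCAO/R + Lrg1-/- libraries. The MCAO/R + WT libraries lay below the sham + WT ones and the Lrg1-/- groups overlapped. The log2 differences after MCAO/R were -0.24 ± 0.16 in WT mice (adjusted p = 0.327) and -0.27 ± 0.14 in Lrg1-/- mice (adjusted p = 0.164). *Axl*, its relative, was scarce in these cells. It was at 10.9, 15.8 and 14.5 CPM in sham + WT, 9.95, 7.71 and 8.05 CPM in sham + Lrg1-/-, 14.6 and 12.2 CPM in MCAO/R + WT and 10.6, 9.10 and 10.6 CPM in MCAO/R + Lrg1-/- libraries. After sham surgery all Lrg1-/- libraries lay below all WT libraries, and *Axl* was called lower by 0.66 ± 0.19 (log2, adjusted p = 0.0264). The call ended without sham + Lrg1-/- replicate 2 (adjusted p = 0.112) or replicate 5 (0.0567), and without sham + WT replicate 2 (0.0919) or replicate 3 (0.0714), and when an unnamed, shallow cluster with microglia markers was added to these cells (0.0525).

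*Gas6*, the ligand that bridges Mertk and Axl to phosphatidylserine, moved in opposite directions in the genotypes. Its level in microglia-like cells was 95.3, 76.3 and 87.3 CPM in sham + WT libraries and 64.6 and 45.3 CPM in MCAO/R + WT libraries. In Lrg1-/- mice it was 71.7, 73.1 and 80.8 CPM after sham surgery and 144, 153 and 111.5 CPM after MCAO/R. The sham groups overlapped, whereas after MCAO/R every Lrg1-/- library lay above both WT libraries and above every sham library. *Gas6* rose by 0.86 ± 0.16 in Lrg1-/- mice (log2, adjusted p = 0.00103) and was higher by 1.31 ± 0.18 in Lrg1-/- than in WT mice after MCAO/R (adjusted p = 0.000364). Its MCAO/R effect differed between genotypes by 1.51 ± 0.24 (adjusted p = 0.00533). These last 2 calls held without any single library, and the rise in Lrg1-/- mice was lost with cells thinned to 1000 UMIs (log2 0.50, adjusted p = 0.0788). The fall in WT mice of 0.65 ± 0.18 (adjusted p = 0.0171) was lost without sham + WT replicate 1 (adjusted p = 0.0659) or replicate 3 (0.052) and without MCAO/R + WT replicate 2 (0.138), and with the unnamed cluster of microglia markers added (0.0518). Since choroid plexus cells also carry *Gas6*, its level was set beside the level that choroid plexus RNA would bring along, taken from the share of choroid plexus marker RNA found in microglia-like cells of the same library. This carried level was 4.17–9.27 CPM in MCAO/R + Lrg1-/- and 4.52–12.6 CPM in sham + Lrg1-/- libraries, below the measured level in all 11 libraries.

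*Cd36*, a fatty acid and oxidised lipoprotein receptor, was low in microglia-like cells except in Lrg1-/- mice after MCAO/R. It had 5.63, 3.95 and 2.39 CPM in sham + WT, 1.68, 2.07 and 0.766 CPM in sham + Lrg1-/-, 6.95 and 1.65 CPM in MCAO/R + WT and 19.6, 33.7 and 10.3 CPM in MCAO/R + Lrg1-/- libraries. Every MCAO/R + Lrg1-/- library lay above every other library. The rise in Lrg1-/- mice was 3.70 ± 0.67 on the log2 scale (adjusted p = 0.000839), from 25 UMIs over the 3 sham libraries to 1683 UMIs. It held without any single library. *Cd36* was 4.91-fold higher in Lrg1-/- than in WT mice after MCAO/R (log2 2.30 ± 0.58, adjusted p = 0.0136), a call lost without MCAO/R + Lrg1-/- replicate 2 (adjusted p = 0.0521) or MCAO/R + WT replicate 2 (0.0881). Without MCAO/R + WT replicate 1 the difference was 3.69 (log2). In WT mice the log2 difference after MCAO/R was 0.12 ± 0.55 (adjusted p = 0.908).

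A *Cd36* UMI was found in 9.93%, 13.5% and 4.49% of microglia-like cells of the MCAO/R + Lrg1-/- libraries, against 3.37%, 2.83% and 1.32% of oligodendrocyte-like cells, which should lack the gene, so that the share lay above this background in each. The group's cells had a median of 8516 UMIs against 4027 in its oligodendrocyte-like cells. With every cell thinned to 1000 UMIs the group shares were 1.38% and 0.399%. In the sham + WT group the microglia-like share, 1.90%, lay at the oligodendrocyte-like one, 2.05%. In the MCAO/R + WT libraries 201 of 4026 and 38 of 4343 microglia-like cells had a *Cd36* UMI. The first share lay above that of MCAO/R + Lrg1-/- replicate 5 (205 of 4571), so that the genotypes overlapped by share of cells after MCAO/R. Border macrophages carry much *Cd36*, and the level their RNA would bring along was 3.03–7.06 CPM in the 2 MCAO/R + Lrg1-/- libraries where it could be computed, below the measured level in both. In the sham libraries the measured level was below it in 5 of 5. Microglia-like cells with a *Cd36* UMI in the 3 MCAO/R + Lrg1-/- libraries also held more monocyte marker RNA than those without (130, 218 and 249 CPM against 37.7, 123 and 128 CPM) and less microglia marker RNA (7143, 6344 and 5834 CPM against 8330, 7350 and 7573 CPM). They were deeper, at medians of 30,740, 16,650 and 12,160 UMIs against 14,320, 10,010 and 7330 UMIs. In the MCAO/R + WT libraries monocyte marker RNA was at 74.2 and 36.3 CPM in cells with a *Cd36* UMI, against 77.2 and 26.2 CPM without. Border macrophage marker RNA was at 36.6, 51.2 and 42.2 CPM in cells with a *Cd36* UMI of the MCAO/R + Lrg1-/- libraries. Without one it was at 19.3, 39.2 and 33.8 CPM. In the MCAO/R + WT libraries it was at 26.4 and 220 CPM (201 and 38 cells), against 21.8 and 14.8 CPM without. Over all microglia-like cells the monocyte marker list (8 of 8 genes with UMIs) summed to 52.5–141 CPM in MCAO/R + Lrg1-/-, 26.3–77.0 CPM in MCAO/R + WT, 22.4–28.2 CPM in sham + Lrg1-/- and 14.0–15.7 CPM in sham + WT libraries. *Cd36* was also called higher in oligodendrocyte-like cells of Lrg1-/- mice after MCAO/R, at 8.68, 7.73 and 2.61 CPM against 1.10 and 0.754 CPM in WT (log2 2.72 ± 0.55, adjusted p = 0.00286). The part of other cells' RNA in the *Cd36* result was not tested.

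*Msr1* had the largest log2 changes of these genes after MCAO/R in microglia-like cells, *Marco* aside. It was at 1.61, 1.55 and 1.77 CPM in sham + WT and at 2.80, 0.188 and 3.45 CPM in sham + Lrg1-/- libraries, and after MCAO/R at 358 and 71.1 CPM in WT and 159, 279 and 188 CPM in Lrg1-/- libraries. No MCAO/R library overlapped a sham library. The rise was 130-fold in WT mice (log2 7.03 ± 0.60, adjusted p = 5.45e-06) and 105-fold in Lrg1-/- mice (log2 6.71 ± 0.67, adjusted p = 3.38e-05), and both calls were kept under all 19 alternatives tried. The size rested on single libraries: the log2 rise in WT mice was 5.43 without MCAO/R + WT replicate 1 and 7.77 without replicate 2, and that in Lrg1-/- mice 7.31 without sham + Lrg1-/- replicate 1 and 6.12 without replicate 2. The MCAO/R + WT libraries differed from each other by more than the Lrg1-/- ones did, and the genotypes overlapped (log2 difference -0.03 ± 0.49, adjusted p = 0.97). Without MCAO/R + WT replicate 1 *Msr1* was higher in Lrg1-/- mice by 1.56 (log2, adjusted p = 0.00647). A *Msr1* UMI was present in 68.3% and 31.9% of microglia-like cells of the MCAO/R + WT libraries. In MCAO/R + Lrg1-/- libraries the shares were 45.7%, 61.4% and 42.4%, and in the sham libraries 0.141–2.06%. Oligodendrocyte-like cells had shares of 6.21% (MCAO/R + WT) and 11.5% (MCAO/R + Lrg1-/-), at median depths of 14,230 and 4027 UMIs against 10,440 and 8516 UMIs in microglia-like cells. The level that monocyte RNA would bring along was 5.19–9.54 CPM in the MCAO/R + Lrg1-/- libraries and 3.78 CPM in MCAO/R + WT replicate 1, far under the measured one. In every MCAO/R library cells with a *Msr1* UMI were deeper and held less microglia and more monocyte marker RNA than those without. Monocyte markers were at 70.5, 153 and 175 CPM against 23.7, 105 and 88.4 CPM in Lrg1-/- libraries. In WT libraries they were at 88.4 and 29.15 CPM against 40.4 and 24.7 CPM. The part of other cells' RNA was not tested.

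*Marco*, a collagen-like scavenger receptor of the same class, was nearly confined to 1 library. Of 2068 UMIs in microglia-like cells, 2011 came from MCAO/R + WT replicate 1, where 151 of 4026 cells held them. The other libraries had 1, 0 and 0 UMIs in sham + WT, 0 in each sham + Lrg1-/-, 6 in MCAO/R + WT replicate 2 and 0, 2 and 48 in MCAO/R + Lrg1-/-. The 0 UMIs among 2153 sham + Lrg1-/- microglia-like cells allow up to 0.139% of cells with a captured UMI, which sets no limit on cells that express the gene. Over the pooled WT libraries the ratio of MCAO/R to sham was 2550 (95% exact interval 457–100,800, counting error only), with an adjusted p of 0.0047 that became 0.319 without MCAO/R + WT replicate 1. The lower level in Lrg1-/- mice after MCAO/R (adjusted p = 0.0292) turned direction without that library (log2 1.94, adjusted p = 0.335). It was also lost without MCAO/R + Lrg1-/- replicate 1 (0.0641) or replicate 2 (0.0879) and without sham + WT replicate 1 (0.0592), and by DESeq2 (0.21). In MCAO/R + WT replicate 1 the *Marco*-positive cells had microglia marker RNA at 4228 CPM against 4696 CPM in the others, and monocyte marker RNA at 89.7 against 76.4 CPM. In the same library 3 of 178 border macrophage-like cells held 41 *Marco* UMIs and 1 T cell-like cell held 13.

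*Stab1*, which recognises phosphatidylserine and acetylated lipoproteins, rose in microglia-like cells of both genotypes. It was at 91.9, 98.0 and 99.5 CPM in sham + WT, 106, 94.2 and 84.7 CPM in sham + Lrg1-/-, 229 and 246 CPM in MCAO/R + WT and 140, 200 and 154 CPM in MCAO/R + Lrg1-/- libraries. The MCAO/R libraries did not overlap the sham libraries, nor did the genotypes overlap after MCAO/R. The rise was 2.46-fold in WT (log2 1.30 ± 0.15, adjusted p = 5.6e-05) and 1.73-fold in Lrg1-/- mice (log2 0.79 ± 0.14, adjusted p = 0.000708), and both calls held under all 19 alternatives. After MCAO/R *Stab1* was lower in Lrg1-/- mice by 0.53 ± 0.15 (log2, adjusted p = 0.0238). That call was lost without MCAO/R + Lrg1-/- replicate 1 (0.0588) or replicate 5 (0.0592) and without MCAO/R + WT replicate 2 (0.118). The difference between the 2 rises was not called (log2 -0.51, adjusted p = 0.132), but was without MCAO/R + Lrg1-/- replicate 2 (log2 -0.68, adjusted p = 0.0463). *Mrc1*, the mannose receptor, stayed between 3.73 and 19.7 CPM in all microglia-like libraries with no call. Its difference between genotypes after MCAO/R was -0.97 ± 0.36 (log2, adjusted p = 0.068), and the level that border macrophage RNA would bring along, 10.8–12.3 CPM after MCAO/R in WT and 11.2–11.5 CPM in Lrg1-/- mice, was as high as the measured one in 1 of 2 libraries each. *Mrc1* was called lower in Lrg1-/- mice after MCAO/R without MCAO/R + Lrg1-/- replicate 2 (log2 -1.52, adjusted p = 0.00808) or MCAO/R + WT replicate 1 (log2 -1.31, adjusted p = 0.022), by DESeq2 (log2 -1.07, adjusted p = 0.0267), with no filter on low counts (0.0226) and with the unnamed cluster of microglia markers added (0.0474). It was called lower in Lrg1-/- mice after sham surgery with no filter (log2 -0.90, adjusted p = 0.0362) and without MCAO/R + Lrg1-/- replicate 2 (log2 -0.84, adjusted p = 0.0467).

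*Cd68*, the lysosomal marker of phagocytes, rose in microglia-like cells of both genotypes from different sham levels. Sham + WT libraries had 343, 321 and 317 CPM and sham + Lrg1-/- libraries 177, 177 and 240 CPM, and MCAO/R libraries had 579 and 439 CPM in WT and 496, 647.5 and 511 CPM in Lrg1-/- mice. All Lrg1-/- sham libraries lay below all WT sham libraries, and the genotypes overlapped after MCAO/R. After sham surgery *Cd68* was lower in Lrg1-/- mice by 0.73 ± 0.16 (log2, adjusted p = 0.00508), which held under all 19 alternatives. It rose 2.80-fold in Lrg1-/- mice (log2 1.48 ± 0.16, adjusted p = 4.37e-05, kept under all 19). The rise in WT mice was 1.56-fold (log2 0.64 ± 0.17, adjusted p = 0.0162), and was lost without sham + WT replicate 2 (adjusted p = 0.0612) or replicate 3 (0.0677) or MCAO/R + WT replicate 1 (0.187). The difference between these rises, 0.85 ± 0.23 (adjusted p = 0.0418), was lost under 9 of 19 alternatives, without MCAO/R + WT replicate 2 among them (adjusted p = 0.149). After MCAO/R the genotypes differed by 0.12 ± 0.17 (adjusted p = 0.661).

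**Figure D2:**
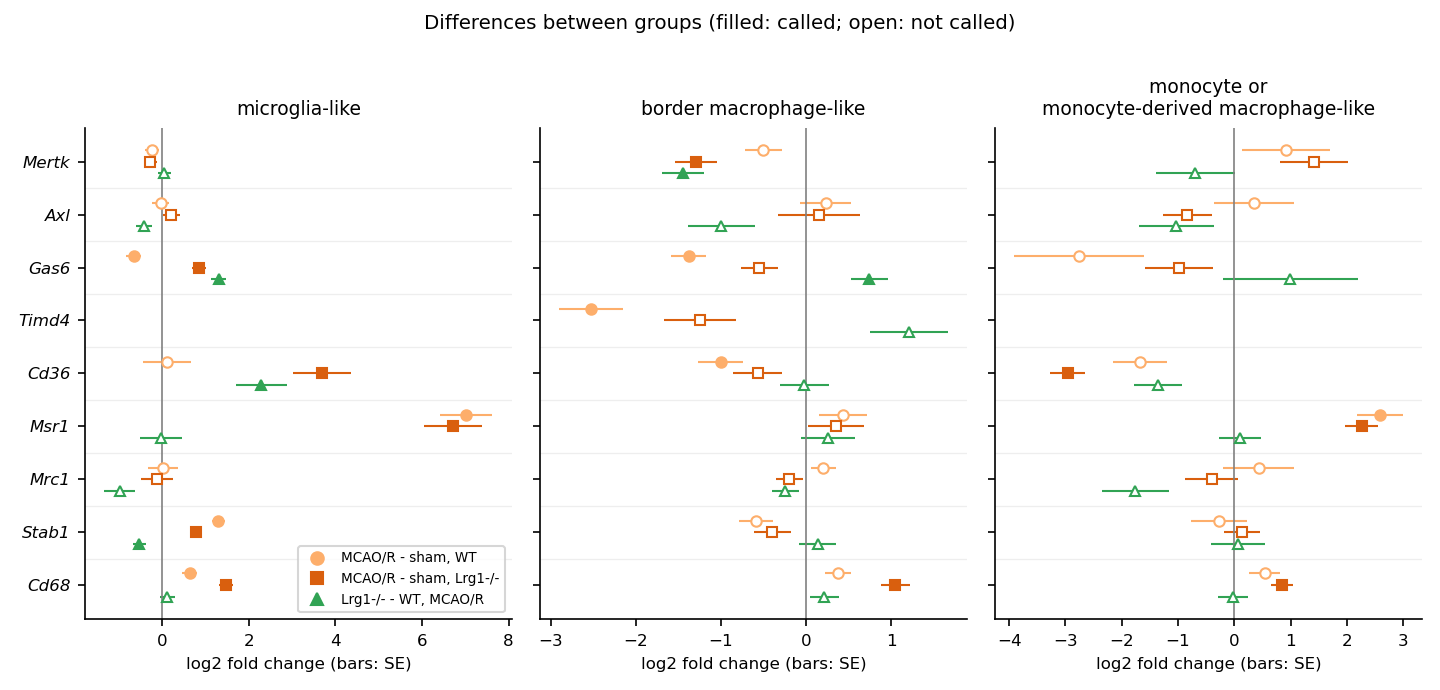
Log2 fold changes with SE bars (horizontal axis) of the genes (vertical axis) in microglia-like, border macrophage-like and monocyte/macrophage-like cells, for MCAO/R minus sham in WT, MCAO/R minus sham in Lrg1-/- and Lrg1-/- minus WT after MCAO/R. Filled symbols were called and open ones were not, and *Marco* is left out because 1 library holds most of its UMIs. In border macrophage-like cells *Gas6*, *Timd4* and *Cd36* lie to the left in WT mice, by 1.38, 2.53 and 1.004.

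In border macrophage-like cells of WT mice, 3 of 9 genes tested fell after MCAO/R (*Timd4*, *Gas6* and *Cd36*) and none rose, where 10.6% of the 10,451 genes tested were called. In Lrg1-/- mice *Cd68* rose and *Mertk* fell (2 of 9, against 8.54%). Between the genotypes after MCAO/R *Mertk* was lower and *Gas6* higher in Lrg1-/- mice (2 of 9, against 11.5%). After sham surgery edgeR called 0 of 9 against 1.56% of all genes, with 3 at an unadjusted p under 0.05 and 0 called by DESeq2. For the interaction it called 0 of 9 against 0.115%, with 4 at an unadjusted p under 0.05 and 0 called by DESeq2. *Marco* did not pass the filter on low counts. The libraries held 297,114–2,568,879 UMIs of these cells, fewer than of microglia-like cells.

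*Timd4*, the phosphatidylserine receptor that marks long-lived resident macrophages, had 38.5, 37.6 and 47.6 CPM in sham + WT, 43.1 and 35.0 CPM in sham + Lrg1-/-, 7.69 and 6.17 CPM in MCAO/R + WT and 20.6 and 3.16 CPM in MCAO/R + Lrg1-/- libraries. All MCAO/R libraries lay below all sham libraries. It fell by 2.53 ± 0.37 in WT mice (log2, adjusted p = 0.000546, kept under all 16 alternatives with a value), and in Lrg1-/- mice the log2 difference was -1.25 ± 0.42 (adjusted p = 0.082). *Mertk* was at 960, 902 and 1162 CPM in sham + WT, 627 and 658 CPM in sham + Lrg1-/-, 532 and 896 CPM in MCAO/R + WT and 287 and 228 CPM in MCAO/R + Lrg1-/- libraries, the last pair being the lowest. It was lower in Lrg1-/- than in WT mice after MCAO/R by 1.45 ± 0.24 (log2, adjusted p = 0.0026, kept under all 17 alternatives). It fell by 1.30 ± 0.25 after MCAO/R in Lrg1-/- mice (adjusted p = 0.00671). The latter was lost without sham + Lrg1-/- replicate 2 (adjusted p = 0.0502) and when an unnamed cluster led by MHC class II genes was added to these cells (log2 -0.42, adjusted p = 0.376). The leading marker list of that cluster was that of dendritic cells, followed by that of monocytes. The unnamed shallow cells with border macrophage markers were not part of it. In WT mice the difference of -0.50 (log2, adjusted p = 0.168) was called without MCAO/R + WT replicate 2 (log2 -0.91, adjusted p = 0.0126). Between the sham groups the difference of -0.65 (adjusted p = 0.171) was called without MCAO/R + WT replicate 1 (0.0373) or replicate 2 (0.0377) and with no filter on low counts (0.0193). *Axl* ranged from 9.22 to 44.8 CPM with no call. It was called lower in Lrg1-/- mice after MCAO/R without MCAO/R + WT replicate 1 (log2 -1.35, adjusted p = 0.0312) and with the MHC class II cluster added (log2 -0.86, adjusted p = 0.017).

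*Gas6* was far more abundant in border macrophage-like cells than in microglia-like cells and fell in WT mice here too. The sham + WT libraries had 527, 489 and 528 CPM, the sham + Lrg1-/- libraries 454 and 516 CPM, the MCAO/R + WT libraries 193 and 203 CPM and the MCAO/R + Lrg1-/- libraries 401.5 and 243.5 CPM. Every MCAO/R library lay below every sham library. The fall in WT mice was 2.60-fold (log2 -1.38 ± 0.20, adjusted p = 0.000531, kept under all 17 alternatives), and the log2 difference in Lrg1-/- mice was -0.55 ± 0.22 (adjusted p = 0.137). The higher level in Lrg1-/- mice after MCAO/R (log2 0.75 ± 0.22, adjusted p = 0.0405) was kept under 6 of 17 alternatives and was 0.28 (adjusted p = 0.584) without MCAO/R + Lrg1-/- replicate 2. It was also lost without either sham + Lrg1-/- library (adjusted p = 0.0509 and 0.0578), without any sham + WT library (0.0701–0.0721) and without MCAO/R + WT replicate 1 (0.064) or replicate 2 (0.0962), with thinned cells (0.0539) and with the MHC class II cluster added (log2 0.035, adjusted p = 0.967).

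*Cd36* was at 2113, 2755 and 1774 CPM in sham + WT, 1535 and 1698 CPM in sham + Lrg1-/-, 1218 and 988 CPM in MCAO/R + WT and 702 and 1508 CPM in MCAO/R + Lrg1-/- border macrophage-like libraries. All MCAO/R libraries lay below all sham libraries. The fall in WT mice of 1.004 ± 0.27 (log2, adjusted p = 0.0268) was lost without sham + WT replicate 1 (0.0667) or replicate 2 (0.114) and without MCAO/R + WT replicate 1 (0.0564) or replicate 2 (0.126), and with the MHC class II cluster added (0.238). In Lrg1-/- mice it was -0.57 ± 0.29 (log2, adjusted p = 0.245), and was called only without replicate 5 of MCAO/R + Lrg1-/- among the libraries left out (log2 -1.19, adjusted p = 0.0195). *Cd68* was at 485, 469 and 497 CPM in sham + WT, 354.3 and 350.3 CPM in sham + Lrg1-/-, 645 and 611 CPM in MCAO/R + WT and 690 and 775 CPM in MCAO/R + Lrg1-/- libraries, so that the 4 groups did not overlap. It rose by 1.05 ± 0.17 in Lrg1-/- mice (log2, adjusted p = 0.00322), which was lost with the MHC class II cluster added (log2 0.48, adjusted p = 0.0928). The differences of 0.38 in WT mice (adjusted p = 0.138) and of -0.46 between the sham groups (adjusted p = 0.196) were not called. *Msr1*, which rose in microglia-like cells, was already at 172–302 CPM in the sham libraries here, and after MCAO/R at 380 and 161 CPM in WT and 353 and 291 CPM in Lrg1-/- libraries with no call. Without MCAO/R + WT replicate 2 it was called higher after MCAO/R in WT mice (log2 0.92, adjusted p = 0.013), and without replicate 1 it was called higher in Lrg1-/- than in WT mice (log2 1.05, adjusted p = 0.0151). *Mrc1*, at 2388–3206 CPM, and *Stab1*, at 348–682 CPM, were not called either, though *Mrc1* was called lower in Lrg1-/- mice after MCAO/R with the MHC class II cluster added (log2 -1.07, adjusted p = 0.0419). In WT mice *Stab1* differed by -0.59 (log2, adjusted p = 0.0763), a difference called without MCAO/R + Lrg1-/- replicate 2 (adjusted p = 0.0296) or replicate 5 (0.0328).

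The monocyte marker list summed to 172–196 CPM in MCAO/R + Lrg1-/- border macrophage-like libraries, against 30.7–49.8 CPM in MCAO/R + WT, 31.4–45.8 CPM in sham + Lrg1-/- and 12.9–19.7 CPM in sham + WT, with all 8 of its genes present. The microglia list (10 of 10 genes present) summed to 479–753 CPM in MCAO/R + WT, against 1488–1674 CPM in MCAO/R + Lrg1-/- and 1838–2072 CPM in the sham groups. The neutrophil list (7 of 7 genes present) summed to 310–906 CPM in MCAO/R + Lrg1-/-, where *Cd68* rose and *Mertk* fell, against 64.5–75.5 CPM in MCAO/R + WT, 72.5–88.6 CPM in sham + Lrg1-/- and 49.6–65.9 CPM in sham + WT. The dendritic list, which includes *Cd209a* (7 of 8 genes present), summed to 32.3 CPM in both MCAO/R + WT libraries and to 56.2–108 CPM in MCAO/R + Lrg1-/-. In sham + WT it summed to 57.4–81.85 CPM and in sham + Lrg1-/- to 84.55–143 CPM. The part of these cells' RNA in the border macrophage-like results was not tested.

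**Figure D3:**
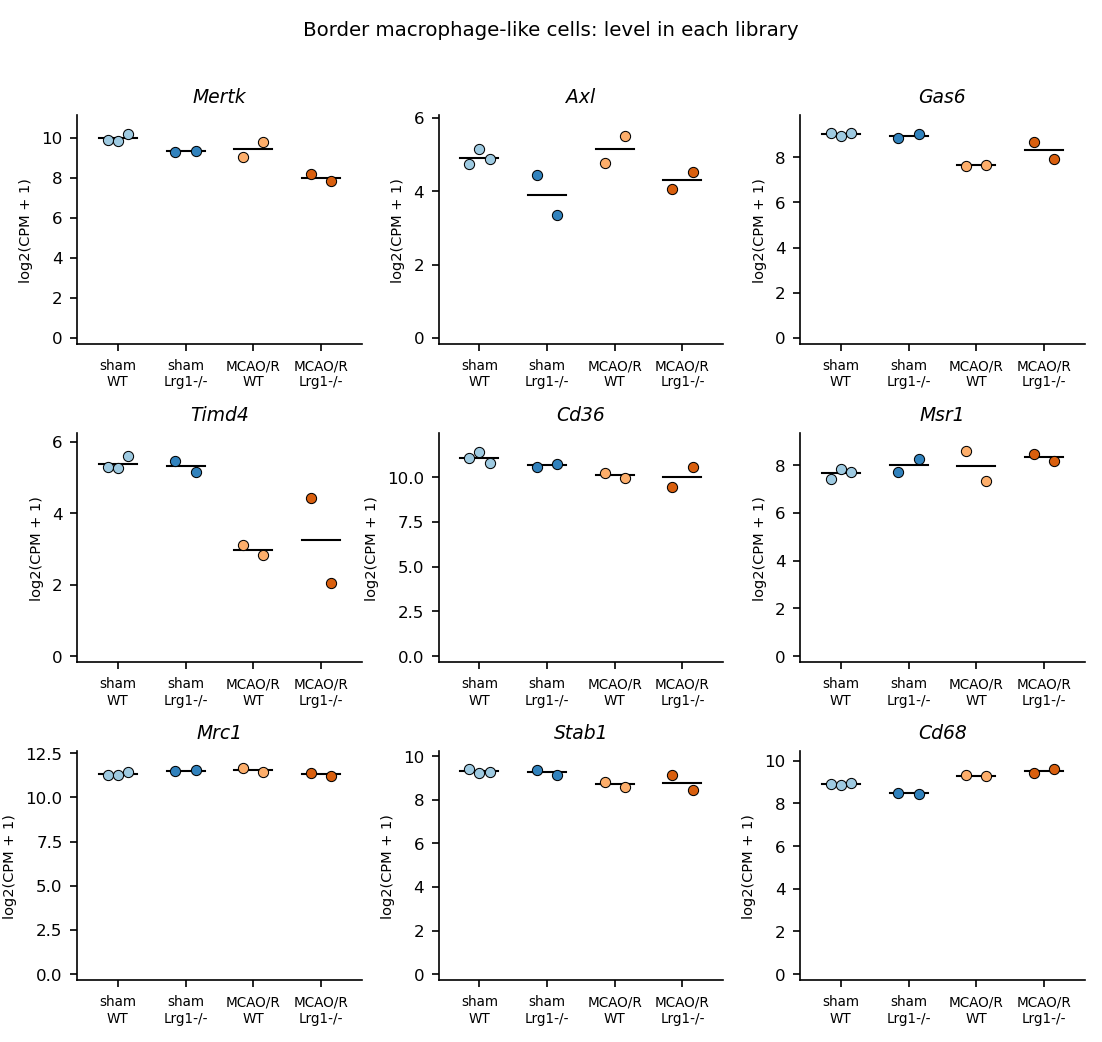
Level of 9 of the genes in border macrophage-like cells, 1 panel per gene, as log2(CPM + 1) on the vertical axis with a scale of its own per panel and the 4 groups along the horizontal axis; points are libraries and lines group means. *Timd4*, *Gas6* and *Cd36* lie lower in both MCAO/R groups than in both sham groups, and *Mertk* is lowest in the MCAO/R + Lrg1-/- libraries at 287 and 228 CPM.

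In monocyte/macrophage-like cells, *Msr1* rose after MCAO/R in both genotypes, and in Lrg1-/- mice *Cd68* rose and *Cd36* fell. Of the 8 genes tested, 1 was called in WT mice (against 2.20% of 6536 genes) and 3 in Lrg1-/- mice (against 16.5%). Between the genotypes edgeR called 0 of 8 after sham surgery (against 1.84%; 0 at an unadjusted p under 0.05 and 0 by DESeq2) and 0 of 8 after MCAO/R (against 0.352%; 2 at an unadjusted p under 0.05 and 0 by DESeq2). *Msr1* was at 42.8, 33.0 and 69.6 CPM in sham + WT, 67.8, 84.6 and 43.5 CPM in sham + Lrg1-/-, 286 CPM in the MCAO/R + WT library and 229, 337.5 and 348 CPM in MCAO/R + Lrg1-/- libraries, with no overlap between sham and MCAO/R. It rose by 2.59 ± 0.41 in WT mice (log2, adjusted p = 0.00686) and by 2.26 ± 0.29 in Lrg1-/- mice (adjusted p = 0.000496). The WT call was lost with thinned cells (log2 1.93, adjusted p = 0.27).

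*Cd36* in monocyte/macrophage-like cells was at 591, 667 and 951 CPM in sham + WT, 890, 799 and 422 CPM in sham + Lrg1-/-, 230 CPM in MCAO/R + WT and 114, 97.1 and 65.3 CPM in MCAO/R + Lrg1-/- libraries. All MCAO/R libraries lay below all sham libraries. The fall was 2.96 ± 0.31 in Lrg1-/- mice (log2, adjusted p = 0.000258, kept under all 17 alternatives) and the difference in WT mice -1.68 ± 0.47 (adjusted p = 0.0821, called by DESeq2 at 0.025 and with no filter at 0.00074). This class joined 2 clusters whose shares differed between groups, 1 led by *Arg1* and *Chil3* and 1 by *Adgre4* and *Pparg*. The *Arg1*-led cluster gave 61 of 119 cells in sham + Lrg1-/- and 1391 of 1519 in MCAO/R + Lrg1-/-. Within the *Arg1*-led cluster *Cd36* was at 98.6 CPM in sham + Lrg1-/- and 50.6 CPM in MCAO/R + Lrg1-/-, and within the *Adgre4*-led cluster at 1219 and 569 CPM, each over the pooled cells of a group. In WT mice *Cd36* was at 164 CPM after sham surgery and 194 CPM after MCAO/R within the *Arg1*-led cluster, and at 1245 CPM (48 cells) and 800 CPM (6 cells) within the *Adgre4*-led cluster. In the same Lrg1-/- groups *Msr1* was at 71.3 and 325.5 CPM in the *Arg1*-led and at 48.8 and 103.5 CPM in the *Adgre4*-led cluster. *Cd68* was at 275 and 435 CPM in the *Arg1*-led cluster and at 219 and 218 CPM in the *Adgre4*-led cluster, and in the joined class it rose by 0.85 ± 0.20 (log2, adjusted p = 0.0107), from 240–320 to 404–519 CPM, a call lost with thinned cells (adjusted p = 0.203). *Mrc1* (113–579 CPM), *Stab1* (74.5–198 CPM), *Gas6* (23.8–197 CPM), *Mertk* (4.64–121 CPM) and *Axl* (13.3–36.6 CPM) varied widely between libraries of this class and were not called. Calls were gained for *Mertk* after MCAO/R in Lrg1-/- mice without sham + WT replicate 2 (log2 1.43, adjusted p = 0.0312) and for *Gas6* without MCAO/R + Lrg1-/- replicate 1, in WT mice (log2 -2.75, adjusted p = 0.0466) and in Lrg1-/- mice (log2 -1.90, adjusted p = 0.00403). A mitochondrial limit of 10% gave calls for *Mertk* in WT mice (log2 2.60, adjusted p = 0.0411) and Lrg1-/- mice (1.54, 0.0208), thinned cells 1 for *Gas6* in Lrg1-/- mice (-1.92, 0.0404), and no filter on low counts calls for *Gas6*, *Mertk*, *Mrc1* and *Cd36*. The border macrophage marker list summed to 1584–2146 CPM in sham + WT, 544.5–1526 CPM in sham + Lrg1-/-, 2589 CPM in MCAO/R + WT and 932–2218 CPM in MCAO/R + Lrg1-/- libraries of these cells, and its part was not tested.

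The levels over 18 cell types set the 10 genes apart by where they are made (plain CPM, mean ± SD over libraries, a description with no test). *Mrc1* had 2710 ± 246 CPM (n = 9) in border macrophage-like and 295 ± 181 CPM (n = 10) in monocyte/macrophage-like cells, with no overlap between them, and 11.2 ± 4.5 CPM (n = 11) in microglia-like cells. *Stab1* was highest in border macrophage-like cells at 535 ± 109 CPM, without overlap with microglia-like cells at 139 ± 54 CPM. *Cd36* followed the order border macrophage-like (1570 ± 590 CPM) and monocyte/macrophage-like (463 ± 329 CPM). Their ranges overlapped over all libraries but within none of the 4 groups. *Msr1* (254 ± 79, 146 ± 122 and 94.2 ± 123 CPM in border macrophage-like, monocyte/macrophage-like and microglia-like cells) and *Cd68* (538 ± 156, 357 ± 100 and 382 ± 150 CPM) overlapped among these 3 classes over all libraries. In the sham + WT group alone the *Msr1* means were 195, 47.4 and 1.57 CPM in the same order, and the sham libraries of the 3 classes did not overlap.

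The TAM genes were not confined to phagocytes. *Mertk* was as high in astrocyte-like cells, which also use it for uptake of synapses and debris, at 821 ± 319 CPM as in microglia-like cells at 782 ± 144 CPM and border macrophage-like cells at 682 ± 300 CPM, and these ranges overlapped. *Axl* was highest in pericyte-like cells at 180 ± 36 CPM (n = 7), without overlap with the next class, fibroblast-like cells at 112 ± 22 CPM. *Gas6* was highest in ependymal-like cells at 476 ± 115 CPM, border macrophage-like cells at 390 ± 139 CPM and choroid plexus epithelial-like cells at 387 ± 82 CPM, which overlapped. *Timd4* had 26.1 ± 17 CPM in border macrophage-like cells and 6.69 ± 6.4 CPM in monocyte/macrophage-like cells.

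**Figure D4:**
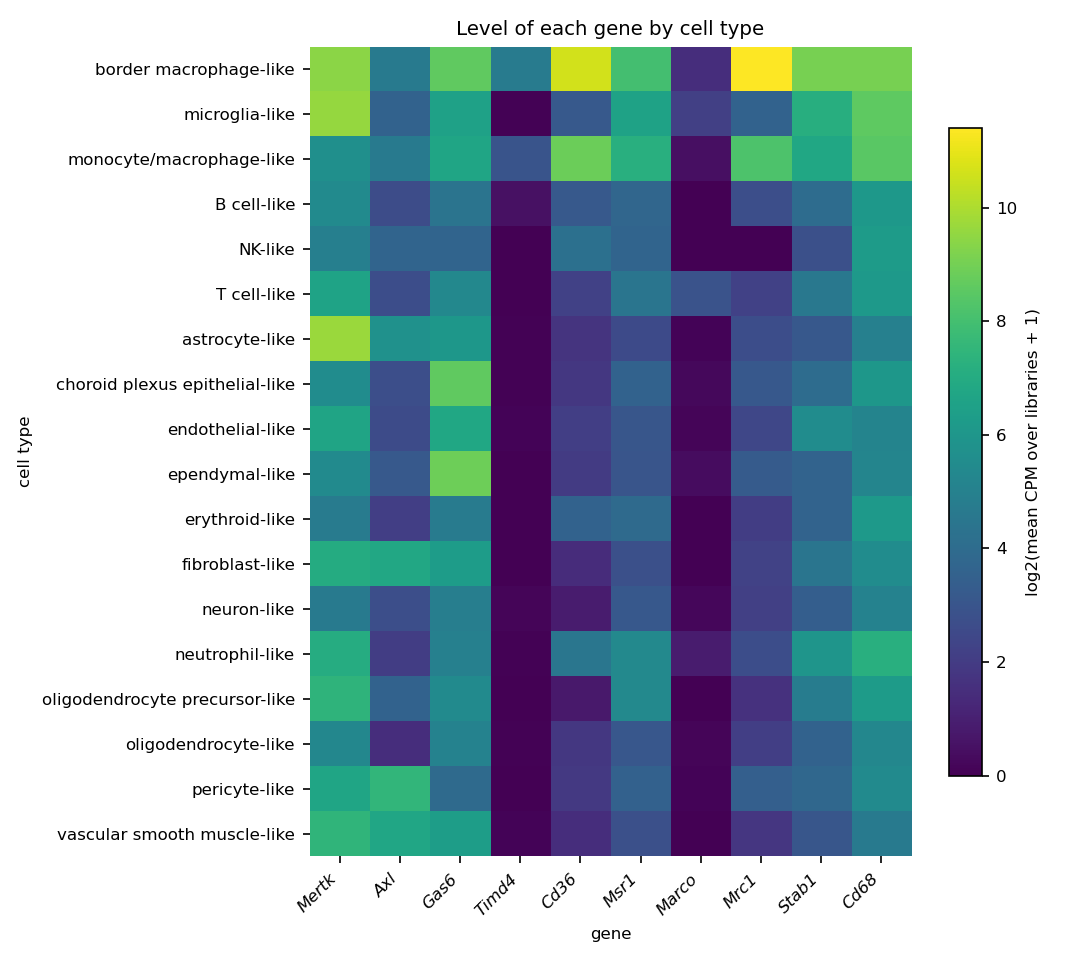
Heat map of the mean level of each gene (columns) in each of 18 cell types (rows), as log2(mean CPM + 1) over libraries of all groups, with brighter colours for higher levels. *Mrc1*, *Cd36* and *Stab1* are brightest in border macrophage-like cells, at 2710, 1570 and 535 CPM, and *Mertk* is bright in astrocyte-like cells at 821 CPM.

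Over these 18 types the genes whose mean log2(CPM + 1) most resembled each gene (Pearson r among 9367 genes, a description) were *Cd163*, *Ms4a7* and *Cd209f* for *Mrc1* (r = 0.969 for the first), *Pf4*, *Ms4a4a* and *Ccl7* for *Cd36* (0.958), *Pla2g2d*, *Fcna* and *Ccl8* for *Timd4* (0.993), *Ms4a6d*, *Ms4a6c* and *Ifi207* for *Msr1* (0.958), *P2ry6*, *Ms4a6d* and *Ccl12* for *Cd68* (0.977), and *Tnfrsf11a*, *Adgre1* and *Gm49662* for *Stab1* (0.932). *Nupr1*, *Heyl* and *H6pd* were nearest to *Axl* (0.899), *Lonrf3*, *Cryl1* and *Zfhx3* to *Mertk* (0.829), *Khk*, *Trpv4* and *Slc45a4* to *Gas6* (0.804) and *Cdh23*, *Cxcl10* and *Lcp2* to *Marco* (0.865). *Marco* averaged at most 6.65 CPM in any type, and most of its UMIs came from MCAO/R + WT replicate 1. Its nearest genes therefore rest mainly on 1 library. Among the genes themselves *Mrc1* and *Timd4* were most alike (r = 0.951), then *Cd36* and *Timd4* (0.915) and *Msr1* and *Cd68* (0.913), whereas *Axl* reached at most 0.436, with *Mertk*. The points share libraries and carried RNA.

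In the other cell types, 8 of 67 tests were called in WT mice after MCAO/R (against 7.69% of all genes tested in them), 17 of 71 in Lrg1-/- mice (7.25%), 6 of 65 between genotypes after sham surgery (9.03%), 13 of 73 after MCAO/R (12.1%) and 2 of 60 for the interaction (0.769%). *Msr1* made 4 of the 8 and 7 of the 17, and *Cd68* 6 of the 13. Since *Msr1* was at or near 0 in the sham libraries of these types and passed the filter on low counts mainly through MCAO/R libraries, the counts apart from it were 4 of 59 in WT mice, 10 of 62 in Lrg1-/- mice and 11 of 64 between the genotypes after MCAO/R. *Msr1* in the MCAO/R libraries of these types had a median of 17.1 CPM against 0 CPM in the sham libraries. The level that microglial RNA would bring along, from the share of microglia marker RNA in each class and library, had a median of 22.5 CPM, and the measured *Msr1* level was above it in 18 of 60 values. For *Cd68* the measured median was 61.6 CPM, the carried one 57.4 CPM and 43 of 60 values lay above it, and for *Stab1* 20.5 CPM, 18.6 CPM and 26 of 60.

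**Figure D5:**
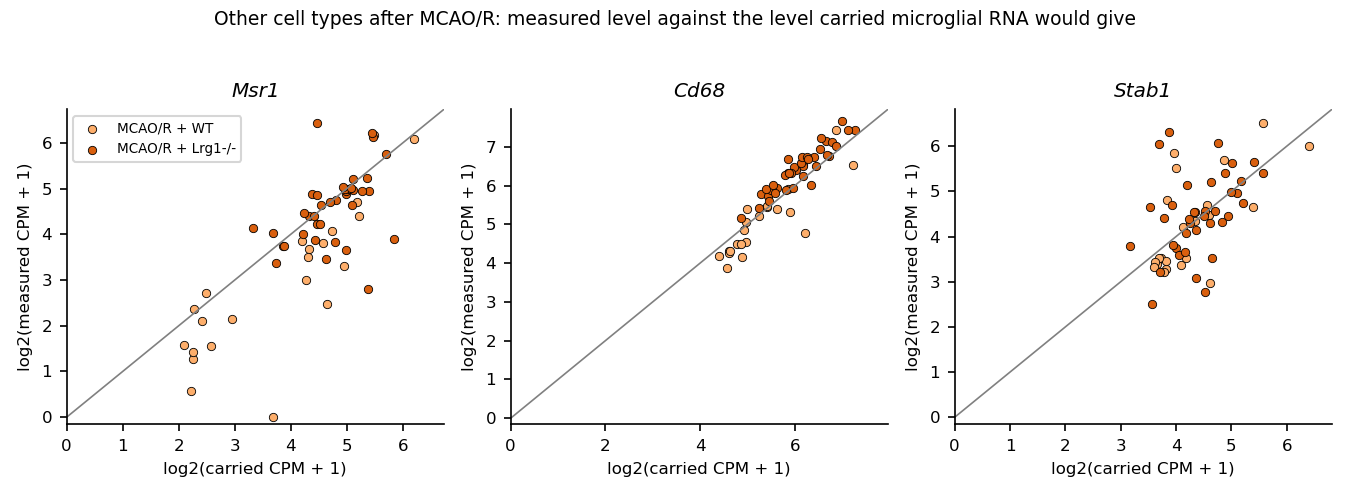
Measured level (vertical axis) against the level that microglial RNA would bring along (horizontal axis), both log2(CPM + 1), for *Msr1*, *Cd68* and *Stab1*; each point is 1 cell type other than microglia-like, border macrophage-like and monocyte/macrophage-like in 1 MCAO/R library, and the line marks equality. Above the line lie 18 of 60 points for *Msr1*, 43 of 60 for *Cd68* and 26 of 60 for *Stab1*.

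*Stab1* in endothelial-like cells lay above the carried level in all 11 libraries. It was at 33.5, 36.2 and 36.5 CPM in sham + WT, 28.9, 35.0 and 27.6 CPM in sham + Lrg1-/-, 59.0 and 45.1 CPM in MCAO/R + WT and 62.4, 84.0 and 62.8 CPM in MCAO/R + Lrg1-/- libraries, with no overlap between sham and MCAO/R. It rose by 0.56 ± 0.16 in WT (log2, adjusted p = 0.031) and by 1.20 ± 0.15 in Lrg1-/- mice (adjusted p = 0.000577), and the carried level after MCAO/R was 11.9–26.0 CPM. The call in Lrg1-/- mice held without any single library, and that in WT mice was lost without any sham + WT library (adjusted p 0.0629–0.0842), without MCAO/R + WT replicate 1 (0.349) and with cells thinned to 1000 UMIs (0.169). *Gas6* fell in endothelial-like cells of WT mice, from 126, 137 and 148 CPM to 61.0 and 95.4 CPM (log2 -0.81 ± 0.20, adjusted p = 0.0183). The call was lost without sham + WT replicate 2 (0.0504) or replicate 3 (0.0637), without MCAO/R + WT replicate 1 (0.21) and with thinned cells (0.0644). In Lrg1-/- mice the log2 difference was -0.54 ± 0.18 (adjusted p = 0.0565), which was called without MCAO/R + Lrg1-/- replicate 1 (adjusted p = 0.00531) or either MCAO/R + WT library (0.0272 and 0.0312).

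In oligodendrocyte-like cells *Gas6* went the other way. It was at 15.2, 9.75 and 9.52 CPM in sham + WT and 36.4 and 67.6 CPM in MCAO/R + WT libraries (log2 2.18 ± 0.26, adjusted p = 5.5e-05), and at 30.5, 21.9 and 33.6 CPM in sham + Lrg1-/- and 48.2, 35.0 and 42.7 CPM in MCAO/R + Lrg1-/- libraries. The sham groups did not overlap, with Lrg1-/- higher by 1.31 ± 0.28 (log2, adjusted p = 0.0135). This call was lost without sham + Lrg1-/- replicate 1 (0.0889) or replicate 5 (0.0506), without sham + WT replicate 2 (0.0552) and with thinned cells (0.219). The rise in WT mice held without any single library. In vascular smooth muscle-like cells *Gas6* was also higher in Lrg1-/- mice after sham surgery, at 106, 82.1 and 94.4 CPM against 61.6, 57.0 and 57.9 CPM (log2 0.69 ± 0.14, adjusted p = 0.00406), a call that was lost with thinned cells (0.39) and held without any single library. Choroid plexus epithelial-like cells, which also carry *Gas6*, made up 29.8% of sham + Lrg1-/- and 1.71% of sham + WT cells. The *Gas6* level their RNA would bring along to oligodendrocyte-like or vascular smooth muscle-like cells was not computed. *Axl* rose in vascular smooth muscle-like cells of WT mice from 80.7, 92.3 and 89.3 CPM to 127 CPM in both libraries (log2 0.54 ± 0.14, adjusted p = 0.0145). The rise was lost without sham + WT replicate 1 (0.0561) and without MCAO/R + WT replicate 1 (0.0861) or replicate 2 (0.0782). *Mertk* in these cells was lower in Lrg1-/- mice after MCAO/R, at 177, 94.8 and 104 CPM against 180 and 267 CPM (log2 -0.94 ± 0.21, adjusted p = 0.0076), which was lost without MCAO/R + WT replicate 2 (0.141). In astrocyte-like cells *Mertk* measured 985, 834 and 647 CPM in sham + WT, 430, 947 and 608 CPM in sham + Lrg1-/-, 1029 and 1577 CPM in MCAO/R + WT and 844, 611 and 731 CPM in MCAO/R + Lrg1-/- libraries. Both MCAO/R + WT libraries lay above all others, and the remaining groups overlapped. Its log2 differences there were 0.67 ± 0.30 after MCAO/R in WT mice (adjusted p = 0.243) and -0.84 ± 0.31 between the genotypes after MCAO/R (adjusted p = 0.177). The rise in WT mice was called with cells thinned to 1000 UMIs (log2 0.81, adjusted p = 0.0482).

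The wider pathway was read from 2 lists, 40 further genes of efferocytosis and 23 other scavenger receptors (*Lrp1* and *Stab2* are in both, and *Clec7a* was not analysed here). In microglia-like cells, 12 of 39 efferocytosis genes tested were called in WT mice after MCAO/R (9 higher, 3 lower, median log2 change 0.17 against 0.06 over all genes), where 22.1% of all genes were called. In Lrg1-/- mice 19 of 39 were called (14 higher, 5 lower, median 0.20), against 36.1% of all genes. There were 13 of 39 between the genotypes after MCAO/R (6 higher and 7 lower in Lrg1-/- mice, median 0.07 against 0.09), against 22.0% of all genes, and 3 without MCAO/R + WT replicate 2. Of 22 scavenger receptors tested, 7 were called in WT mice (5 higher, 2 lower, median 0.29, against 22.1% of all genes), and 4 without sham + WT replicate 2 or replicate 3. After MCAO/R in Lrg1-/- mice 11 were called (8 higher, 3 lower, median 0.25, against 36.1%). Between the genotypes 6 were called (3 each way, median 0.27), a share of 27.3% near the 22.0% of all genes, and 12 without MCAO/R + WT replicate 1. *Cd300lf*, a receptor for phosphatidylserine and ceramide, was the largest change of these lists in WT mice, from 0.951–1.501 CPM to 213.5 and 141 CPM (log2 7.24 ± 0.27, adjusted p = 9.79e-09), and it was lower in Lrg1-/- mice after MCAO/R, at 26.5, 36.5 and 40.0 CPM (log2 -2.35 ± 0.22, adjusted p = 2.24e-05). *Cd14*, a co-receptor for lipopolysaccharide, rose from 249–271 CPM to 1276 and 698.5 CPM in WT mice (log2 1.91 ± 0.31, adjusted p = 0.000793). *Calr*, the chaperone that serves as an uptake signal on dying cells, was higher in Lrg1-/- mice after MCAO/R, at 1210, 1457 and 1075 CPM against 430 and 222 CPM (log2 1.94 ± 0.23, adjusted p = 0.000158). Also called in WT mice were *Olr1*, a receptor for oxidised lipoproteins (log2 2.83 ± 0.64, adjusted p = 0.0064, lost without MCAO/R + WT replicate 1 at 0.249), and, at under 3 CPM in every WT library, *Clec4e* (Mincle, a lectin that senses dead cells; log2 3.78 ± 1.23, adjusted p = 0.0419) and *Scara5*, a ferritin receptor (log2 2.24 ± 0.54, adjusted p = 0.00883, 0.0712 without MCAO/R + WT replicate 1 and 0.0502 by DESeq2). The *Clec4e* call was lost without any 1 of the 6 sham libraries (adjusted p 0.0561–0.135) without MCAO/R + WT replicate 1 (0.445), with thinned cells (0.364) and by DESeq2 (0.132). *Cd5l*, a soluble scavenger receptor of macrophages, was higher in Lrg1-/- mice after MCAO/R, at 4.84, 13.9 and 5.98 CPM against 1.15 and 0.148 CPM (log2 3.67 ± 0.66, adjusted p = 0.00195), as was *Cd300lb* (log2 1.51 ± 0.36, adjusted p = 0.00938). The *Cd5l* difference was 5.81 without MCAO/R + WT replicate 1 and 2.88 without replicate 2. *Scara3*, under 1 CPM in every MCAO/R library, was called lower (log2 -1.69 ± 0.48, adjusted p = 0.0233), which was lost without MCAO/R + Lrg1-/- replicate 5 (0.103) or MCAO/R + WT replicate 2 (0.216), by DESeq2 (0.0518) and with the unnamed cluster of microglia markers added (log2 -0.48, adjusted p = 0.65). The calls of *Cd300lf*, *Cd14*, *Cd5l*, *Calr* and *Cd300lb* held under all 19 alternatives.

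In border macrophage-like cells, 8 of 29 efferocytosis genes tested were called in WT mice after MCAO/R (6 higher, 2 lower, median -0.08 against 0.00 over all genes), where 10.6% of all genes were called, and 3 of 29 in Lrg1-/- mice (2 higher, 1 lower, against 8.54%). There were 4 of 29 between the genotypes after MCAO/R (2 each way, median -0.06 against 0.01), a share of 13.8% near the 11.5% of all genes, and 0 without MCAO/R + Lrg1-/- replicate 2 and 8 without MCAO/R + WT replicate 1. Of 13 scavenger receptors, 3 were called in WT mice (2 higher, 1 lower, median -0.10, against 10.6% of all genes), and 5 and 6 without MCAO/R + WT replicate 1 and replicate 2. Between the genotypes 3 were higher in Lrg1-/- mice (median 0.57, against 11.5%), and in Lrg1-/- mice after MCAO/R 2 were lower (against 8.54%). The count between the genotypes was 0 without MCAO/R + Lrg1-/- replicate 2 or MCAO/R + WT replicate 2, 1 without any of the sham + WT libraries and 6 without MCAO/R + WT replicate 1. *Cd300lf* rose here too, from 0.587–1.98 CPM to 56.3 and 47.1 CPM in WT mice (log2 5.47 ± 0.44, adjusted p = 7.31e-06), and was at 7.92 and 15.8 CPM in MCAO/R + Lrg1-/- libraries (log2 -2.42 ± 0.41 against WT, adjusted p = 0.00328). Sham libraries of these cells had 0–3 UMIs of *Cd300lf* and 0–10 of *Clec4e* each. Both genes therefore passed the filter on low counts mainly through MCAO/R libraries, and the sizes of their rises rest on few sham UMIs. *Cd300lf* is in each efferocytosis count above, and *Clec4e* in the scavenger receptor count of WT mice. *Cd209a*, a lectin of the DC-SIGN family, was at 24.1–34.3 CPM in sham + WT and at 1.22 and 0 CPM in MCAO/R + WT libraries, where it had 3 UMIs. The ratio of sham + WT to MCAO/R + WT was 34.9 (95% exact interval 11.7–171, counting error only), and that of MCAO/R + Lrg1-/- to MCAO/R + WT, from 30 and 3 UMIs, was 17.3 (5.39–88.7). *Cd209a* was among the leading genes of the unnamed shallow cells with border macrophage markers, which are left out of these values. Over the alternatives the fitted log2 values were -8.05 to -2.95 for MCAO/R in WT mice and 2.39 to 7.01 for the genotypes after MCAO/R, the lower sizes with the MHC class II cluster added and the higher without MCAO/R + WT replicate 1, which leaves 0 UMIs in that group and makes the fitted value no bound. The genotype difference of *Cd209a* was lost without MCAO/R + Lrg1-/- replicate 2 (adjusted p = 0.273) or MCAO/R + WT replicate 2 (0.0621). *Clec4e* rose from 0.660–2.10 CPM to 71.3 and 19.3 CPM (log2 4.88 ± 0.74, adjusted p = 0.000646), and *Havcr2* (TIM-3) and *Ucp2*, a mitochondrial carrier needed for continued uptake, rose by 2.03 ± 0.46 and 1.61 ± 0.19 (log2, adjusted p = 0.0103 and 9.28e-05). After MCAO/R *Calr* and *Fcgr1* were higher in Lrg1-/- mice by 1.76 ± 0.32 and 1.39 ± 0.38 (adjusted p = 0.00363 and 0.0314), and *Abca1*, which exports the cholesterol of digested cells, was lower by 1.19 ± 0.23 (adjusted p = 0.00553), at 288 and 278 CPM against 486 and 809 CPM. The genotype calls of *Cd300lf*, *Calr*, *Fcgr1* and *Abca1* were lost without MCAO/R + Lrg1-/- replicate 2, which leaves 1 library of that group (adjusted p = 0.184, 0.109, 0.367 and 0.0827). *Fcgr1* was also lost without any sham + WT library (0.0511–0.056) or MCAO/R + WT replicate 2 (0.0697), and *Havcr2* without sham + WT replicate 1 (0.053) or MCAO/R + WT replicate 1 (0.42). With the MHC class II cluster added *Havcr2* (log2 0.072, adjusted p = 0.962) and the genotype calls of *Cd300lf* (log2 -0.87, adjusted p = 0.112) and *Fcgr1* (log2 1.01, adjusted p = 0.0711) were lost, and the rises of *Cd300lf* and *Clec4e* in WT mice were 3.73 and 3.09. Without MCAO/R + WT replicate 1 the genotype differences of *Calr* and *Fcgr1* were 2.59 and 2.67 (log2).

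Without MCAO/R + Lrg1-/- replicate 5, which stood apart, every call of the 10 genes in microglia-like, border macrophage-like and monocyte/macrophage-like cells was kept except the lower *Stab1* in microglia-like cells given above. Without it *Timd4* in border macrophage-like cells was called higher in Lrg1-/- than in WT mice after MCAO/R (log2 1.53, adjusted p = 0.023), beside the gains for *Cd36* and *Stab1* given above. That left 1 MCAO/R + Lrg1-/- library of border macrophage-like cells, replicate 2, which the fit assumed to vary like the other groups. With the haemoglobin genes left out of the counts no call of the 10 genes in these 3 classes was lost, and *Mrc1* in microglia-like cells was called lower in Lrg1-/- mice after MCAO/R (log2 -1.04, adjusted p = 0.0482).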

How the data were processed

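The authors deposited, for each of 11 libraries (10x Genomics 3′ kit, 1 mouse each), a matrix of UMI counts per gene and cell barcode, not normalised. The file headers name Cell Ranger 7.0.1, and the submitters' processing notes name STAR and mm10. Barcodes with over 500 genes, over 1000 UMIs and under 25% mitochondrial UMIs were kept (132,437 of 155,804). Doublets were scored per library with Scrublet in scanpy 1.11.5, and 7324 were removed. In 5 libraries, where the automatic threshold marked too few, the highest 6% of scores were taken. These were sham + Lrg1-/- replicates 2 and 5, MCAO/R + Lrg1-/- replicates 1 and 5 and sham + WT replicate 1. Cells were clustered with the Leiden algorithm (leidenalg 0.10.2), and clusters were named from marker genes that exclude the 10 genes. Clusters that raised markers of 2 types or were led by haemoglobin were clustered again, and 32,819 cells stayed unnamed. UMIs were summed per library and cell type (at least 20 cells), and genes were tested with edgeR 4.0.16 (TMM normalisation, filterByExpr, quasi-likelihood test, Benjamini-Hochberg adjustment over every gene tested in that cell type). DESeq2 1.42.0, in R 4.3.3, served as an alternative. A call needed an adjusted p under 0.05 and a natural-log fold change over 0.25 in size.

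CPM within a cell type used TMM-adjusted library sizes, and levels across cell types used plain CPM. The level carried over from a source cell type was its CPM times the ratio of that type's summed marker CPM in the receiving cells to that in the source, per library. Shares of cells with a UMI were also taken with each cell thinned to 1000 UMIs. From the efferocytosis and scavenger lists, the 5 called genes with the largest log2 change whose groups did not overlap were named for MCAO/R against sham in WT mice and for the genotypes after MCAO/R, in microglia-like and border macrophage-like cells. The 10 genes, both lists and the rules for naming clusters were chosen with earlier results of these data known. Replicates are single mice, and p-values measure the spread between them. Intervals and zero limits cover counting error only. Microglia-like libraries of all 4 groups (18,433 genes) were simulated with changes put into MCAO/R + WT. Against sham + WT, 51.5% of 2-fold and 89.8% of 4-fold changes were recovered, and 4.79% of calls were false. The simulation held no free RNA, no difference in cell make-up and no outlying library, so its false share does not carry over to the real libraries. Positions and promoters are from GRCm38 (GENCODE M21 and RefSeq).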

Additional observations from a re-analysis of the deposited data

Results flagged for a closer look

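The effect of MCAO/R differed between the genotypes by the interaction test of edgeR for 5 gene and cell type pairs, each given as the log2 effect in Lrg1-/- mice minus that in WT mice. In microglia-like cells the difference was 3.58 for *Cd36* (SE 0.889, adjusted p = 0.0285), 1.51 for *Gas6* (SE 0.238, adjusted p = 0.00533) and 0.85 for *Cd68* (SE 0.234, adjusted p = 0.0418). In oligodendrocyte-like cells it was -1.63 for *Gas6* (SE 0.379, adjusted p = 0.0359) and 1.60 for *Cd68* (SE 0.394, adjusted p = 0.0462), the latter in cells where microglial RNA would bring along 54.9–102 CPM of *Cd68* in MCAO/R + Lrg1-/- libraries. The measured level there was 75.9–109.8 CPM, above the carried level in 3 of 3 libraries. For *Gas6* in oligodendrocyte-like cells no carried level of choroid plexus RNA was computed. The *Gas6* difference in microglia-like cells held without any single library. That of *Cd36* was lost without sham + Lrg1-/- replicate 1, 2 or 5, MCAO/R + Lrg1-/- replicate 2, sham + WT replicate 1 or 2, or MCAO/R + WT replicate 2 (adjusted p 0.0564–0.074), and that of *Cd68* without sham + Lrg1-/- replicate 1 or 2, MCAO/R + Lrg1-/- replicate 2, any sham + WT library or MCAO/R + WT replicate 2 (0.0788–0.149). In oligodendrocyte-like cells *Gas6* was lost without any sham + Lrg1-/- library, MCAO/R + Lrg1-/- replicate 2, sham + WT replicate 2 or 3, or MCAO/R + WT replicate 2 (0.0669–0.198), and *Cd68* without any sham library, MCAO/R + Lrg1-/- replicate 2 or MCAO/R + WT replicate 2 (0.0547–0.153).

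*Msr1* UMIs were also found in cells left unnamed, which entered the comparisons at most as an alternative. In the unnamed cluster led by *Chil3* and *S100a9*, at least 19.1% and at most 34.2% of cells of each of 5 MCAO/R libraries had a *Msr1* UMI, against at most 1.58% in the 4 sham libraries. In the unnamed, shallow cluster whose leading marker list was that of microglia, the shares were 17.2% to 62.7% in 5 MCAO/R libraries and at most 2.50% in 6 sham libraries. In oligodendrocyte-like cells, which should lack the gene, the shares were 2.89% to 15.8% after MCAO/R and at most 0.853% after sham surgery, lower than in both clusters in each MCAO/R library. The median depth after MCAO/R was 2474 and 2971 UMIs (Lrg1-/- and WT) in the first cluster, 2047 and 3276 UMIs in the second, and 4027 and 14,230 UMIs in oligodendrocyte-like cells. The part of free RNA was not tested. No group had 4 samples or more, so single samples were not screened for distance from their group.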

How the results depend on the processing

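Of 30 calls of the 10 genes in microglia-like, border macrophage-like and monocyte/macrophage-like cells, 14 held under every alternative. Of 2118 values under alternatives, 2012 stayed on their side of the threshold, 68 lost and 37 gained a call, and 1 reversed: the lower *Marco* of Lrg1-/- microglia-like cells after MCAO/R became 1.94 (log2) without MCAO/R + WT replicate 1 and was -6.06 without replicate 2. In endothelial-like cells the *Axl* difference between sham groups became -0.066 with thinned cells. The cause of these changes was not tested. In border macrophage-like libraries simulated in the same way (10,451 genes), 40.2% of 2-fold and 87.8% of 4-fold changes were recovered for MCAO/R + WT against sham + WT. The unnamed-cluster alternatives, and leaving out libraries in endothelial-like, oligodendrocyte-like and vascular smooth muscle-like cells, were chosen after seeing the data.

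Counts below are of the 10 genes called, with the range when 1 library was left out. Counts under alternatives, here and elsewhere in this report, are given without the share of all genes called under the same setting. A change in such a count is therefore not a result about these genes alone. In microglia-like cells they were 5 in WT mice after MCAO/R (3–5), 5 in Lrg1-/- mice, 2 between sham genotypes (1–3), 4 between MCAO/R genotypes (2–5) and 3 for the interaction (1–3), the sham count and the interaction both 1 with the unnamed cluster led by microglia markers added. Apart from *Marco* the first was 4 (2–4) and the fourth 3 (1–5). In border macrophage-like cells they were 3 (2–5), 2 (1–3), 0 (0–1), 2 (1–3) and 0. The second was 0 with the unnamed MHC class II cluster added, the third 1 with no filter on low counts, and the fourth 1 with thinned cells. In monocyte/macrophage-like cells the WT count of 1 (1–2) was 2 at a mitochondrial limit of 10% and by DESeq2, 0 with thinned cells and 3 with no filter, which also gave 5 for 3 in Lrg1-/- mice, 1 for 0 between sham genotypes and 2 for 0 after MCAO/R. In the other cell types thinning gave 5 for 8 (WT), 10 for 17 (Lrg1-/-), 0 for 6 (sham genotypes), 6 for 13 (MCAO/R genotypes) and 1 for 2 (interaction).

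The efferocytosis list in microglia-like cells had 13 genes called between MCAO/R genotypes (3–15). In border macrophage-like cells it had 8 in WT mice, 2 with thinned cells and 3 with the unnamed cluster, and 4 between MCAO/R genotypes (0–8). The scavenger list in microglia-like cells had 7 in WT mice (4–7), 3 with thinned cells, and 6 between MCAO/R genotypes (3–12). In border macrophage-like cells it had 3 (3–6), 0 with thinned cells and 5 with no filter, and 3 (0–6).

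Over 13 same-numbered pairs the correlation of deviations from group means in microglia-like cells was -0.258 to 0.0606 (median -0.0014), with 0 pairs over 0.1. Over 32 pairs with different numbers it was -0.279 to 0.279, with 2 over 0.1. In endothelial-like cells 1 of 13 and 7 of 32 pairs were over 0.1. Groups of 2 or 3 libraries cannot decide whether the numbers pair the libraries. The 2 MCAO/R + WT libraries deviate equally in opposite directions, so that each value with 1 of them recurs with its sign changed. With a replicate block the counts became 3 in WT microglia-like cells and 1 between their sham genotypes, 0 in Lrg1-/- and 1 between MCAO/R genotypes in border macrophage-like cells, and 2 between sham genotypes in the other types. The microglia-like calls lost were *Gas6* (adjusted p = 0.0606) and *Cd68* (0.0932) in WT mice and *Axl* between sham genotypes (0.131). Lost as well were *Stab1* between MCAO/R genotypes (0.0879) and the *Cd68* interaction (0.112). Apart from *Msr1* the other types then had 2 for 4 in WT mice, 13 for 10 in Lrg1-/- mice and 12 for 11 between MCAO/R genotypes. Among the WT calls lost were *Stab1* and *Gas6* in endothelial-like cells (adjusted p = 0.07716 and 0.07715) and *Axl* in vascular smooth muscle-like cells (0.0533). The efferocytosis list then had 6 (microglia-like, MCAO/R genotypes) and 3 (border macrophage-like, WT), and the scavenger list 3 in both microglia-like comparisons and 0 between MCAO/R genotypes in border macrophage-like cells.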
